A study of Phalaenopsis aphrodite subsp. formosana with 2 samples.

Results

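In the variegated orchid Phalaenopsis aphrodite subsp. formosana, 107 well-expressed loci on long contigs were at least 3-fold lower in the yellow leaf sector than in the green leaf sector. They were picked from 16843 loci by their own values. A locus was kept where its contig was at least 1000 bases long, where FPKM was at least 10 in the higher sector, and where (yellow FPKM + 1) / (green FPKM + 1) was 3-fold or more below 1. FPKM counts sequenced fragments relative to transcript length in kilobases and to each 1000000 fragments mapped. The ratio, the length and the level are therefore descriptions of the choice and not findings, and no test was made on them.

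The material was leaf of a plant described as a variegation mutant, a moth orchid grown in a greenhouse, and total RNA was sequenced from 1 yellow sector library and 1 green sector library. Both libraries came from the mutant. The labels do not state the number of plants and leaves behind each library or the gene affected by the mutation. There are no replicates. The sequencing depth of either library is unknown, so no difference has a counting error and no p-value is given.

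A variegated leaf carries patches of cells that differ in colour, usually because plastids in some cells do not build up chlorophyll while their neighbours do. Green patches hold chloroplasts with photosystems and light-harvesting antennae, whereas pale patches hold plastids with less chlorophyll, in which yellow carotenoids can show. In Arabidopsis, classical variegation mutants lack a thylakoid protease of the FtsH family or the plastid terminal oxidase. Leaf tissue is also a mixture of mesophyll, epidermis and vein cells, and in such bulk tissue fewer cells of a type and less RNA per cell cannot be told apart. Of the locus identifiers, 0 are paired with a gene name in the table, so no lowered locus can be assigned to chlorophyll synthesis, a photosystem or any other function here, and the leaf label could not be checked against marker genes. Loci are given by contig length, with the identifier for the pair with the lowest ratio.

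Of the 11454 loci on contigs of at least 1000 bases, 6251 reached 10 FPKM in a sector and 5203 did not. The 107 lowered loci were 1.71% of these 6251 loci and lay on 101 contigs. By the same limits 183 loci (2.93%) were at least 3-fold higher in the yellow sector, and 5961 lay within 3-fold. Lowered loci thus made up 36.9% of the loci past 3-fold. This split depended on scaling. After yellow FPKM was divided by 1.18, which is summed yellow over summed green FPKM once the most abundant locus is set aside, 160 loci were lowered and 109 raised, so that lowered loci made up 59.5%. That division shifted the median log2 ratio of all measured loci by -0.20, from 0.008 to -0.196. The other scalings moved the split less. Lowered loci made up 37.8% after centring on the median. They made up 42.4% after division by the ratio of totals without the 100 most abundant loci.

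**Figure D1:**
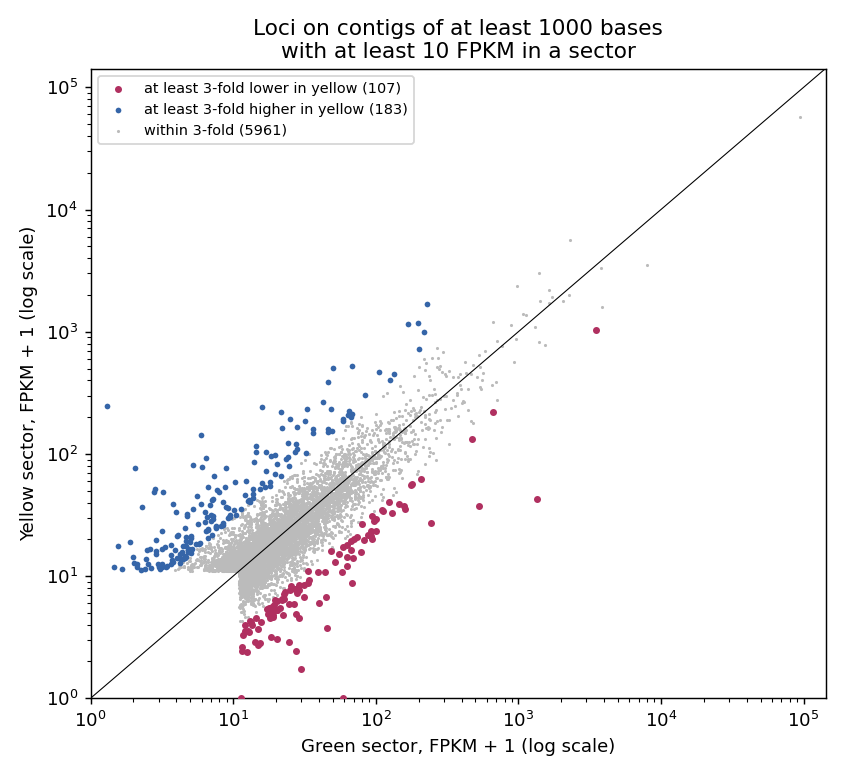
FPKM + 1 in the yellow sector (vertical, log scale) against FPKM + 1 in the green sector (horizontal, log scale) for 6251 loci, 1 library per sector. The 107 lowered loci lie below the line of equality, from 10.4 to 3506 FPKM in green, and the 183 raised loci lie above it.

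Among all loci, 334 were at least 3-fold lower in yellow. The lowered loci described here are 107 of them. Contig length alone left out 133, the FPKM minimum alone left out 25, and both limits left out 69. Most of the loci that were 3-fold lower were thus on shorter contigs or at lower levels.

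The lowered loci spanned a wide range of abundance. Their median was 6.63 FPKM in yellow (quartiles 3.58 and 19.3) and 29.0 FPKM in green (quartiles 18.2 and 79.1). The 5961 loci within 3-fold had medians of 18.3 FPKM in yellow and 18.4 FPKM in green. In green the lowered loci were at a median percentile of 70.5 among the 6251 loci, and in yellow at 2.77. They included 1 of the 100 most abundant loci in yellow and 6 of the 100 most abundant in green. These positions follow in part from the rule, since each lowered locus had to pass the FPKM minimum through green and be lower in yellow.

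In the yellow sector 2 of the lowered loci were listed at 0 and 1 was above 0 but under 1 FPKM. A further 63 had from 1 to under 10 FPKM, 38 had from 10 to under 100 FPKM and 3 had at least 100 FPKM. In the green sector 33 had under 20 FPKM, 58 had from 20 to under 100 FPKM and 16 had at least 100 FPKM. Most lowered loci were thus still listed at 1 FPKM or more in the yellow sector. The median fold over the 105 loci with a yellow value above 0 was 4.23-fold lower, as a ratio of the deposited FPKM.

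On the scale with 1 added to each FPKM, 64 loci were from 3-fold to under 4-fold lower, 34 were from 4-fold to under 8-fold lower and 9 were at least 8-fold lower, 3 of them at least 16-fold. The 2 loci listed at 0 in yellow are among these 9, and the lower of them is among these 3. The raised loci reached further, with 99 of 183 at least 4-fold higher and 24 at least 8-fold higher in yellow, against 43 of 107 lowered loci at 4-fold and 9 at 8-fold. The median log2 ratio of the lowered loci was -1.93, against 2.05 for the raised loci. Both medians follow from the limit that chose the loci.

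XLOC_013867, of a 2468-base contig, had the lowest ratio, listed at 0 FPKM in yellow against 58.1 FPKM in green. XLOC_010186, of a 1699-base contig, came next, with 42.0 FPKM in yellow against 1349 FPKM in green, 32.1-fold lower. It was also the second most abundant of the 107 loci in green. The first was thus listed at 0 in yellow, while the second remained above the median yellow level of all 6251 loci, which was 18.3 FPKM.

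A 1260-base contig came after these, with 0.737 FPKM in yellow against 29.0 FPKM in green, 39.3-fold lower. The locus of a 1218-base contig had 36.3 FPKM in yellow against 525 FPKM in green, 14.5-fold lower. On a 2526-base contig, yellow was at 2.77 FPKM and green at 44.4 FPKM, 16.0-fold lower. Of these, the one with the highest green level stayed above 10 FPKM in yellow, and the others were under 3 FPKM there.

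The other locus listed at 0 in yellow lay on a 1603-base contig and had 10.4 FPKM in green, the lowest green level of the 107. An exact 0 in such a table can be a failed estimate, so no fold is given for it or for XLOC_013867. The 1449-base contig carried 2 lowered loci. The one with the lower ratio had 1.45 FPKM in yellow against 26.5 FPKM in green, 18.3-fold lower, and its neighbour had 1.73 FPKM in yellow against 13.9 FPKM in green, 8.06-fold lower. Both loci of that contig were thus under 2 FPKM in yellow.

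Next in order, a 1368-base contig gave 26.4 FPKM in yellow against 242 FPKM in green, 9.17-fold lower. A 1327-base contig gave 1.90 FPKM in yellow against 23.6 FPKM in green, 12.4-fold lower. The tenth ratio belonged to a 1592-base contig, at 7.80 FPKM in yellow against 67.6 FPKM in green, 8.66-fold lower. Only the first of these was above 10 FPKM in yellow.

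The remaining loci among the 20 lowest ratios were 5.81-fold to 9.49-fold lower, apart from the second locus of the 1449-base contig already given. They lay on contigs of 1445, 1362, 1913, 1048, 2078, 2853, 3854, 1365 and 1068 bases, in order of ratio. Among these the 1365-base contig had the highest values, with 9.83 FPKM in yellow against 57.1 FPKM in green. The 1068-base contig had the lowest, with 1.41 FPKM in yellow against 11.5 FPKM in green. All 9 were under 10 FPKM in yellow.

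**Figure D2:**
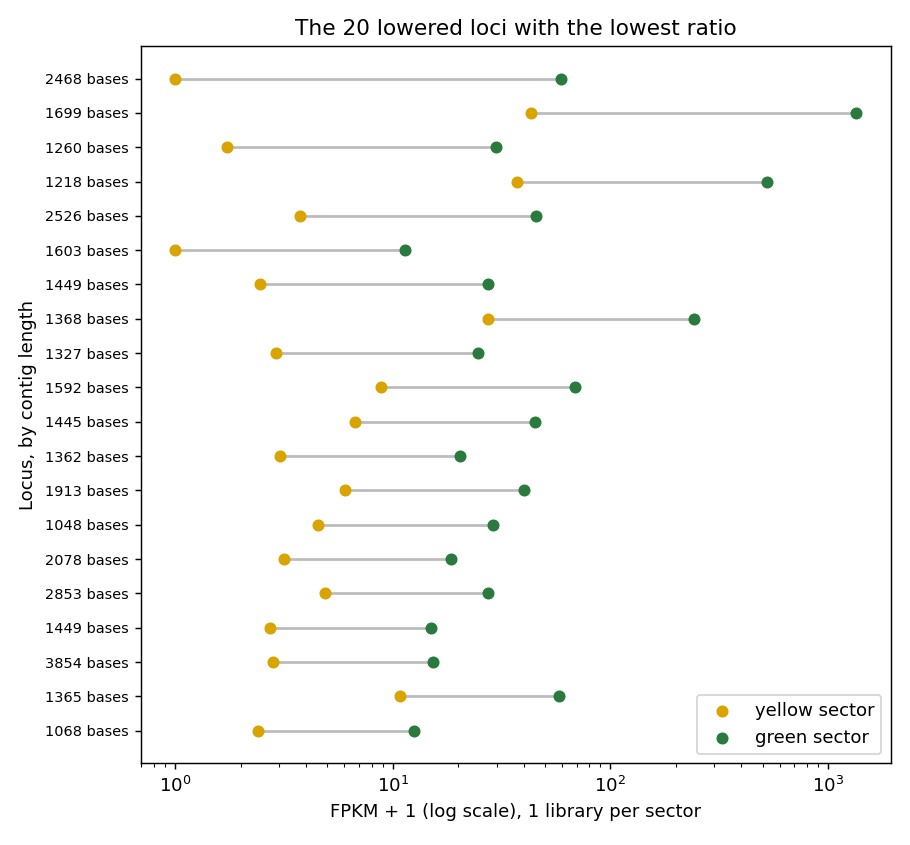
FPKM + 1 (log scale) in the yellow and green sectors for the 20 lowered loci with the lowest ratio, 1 library per sector, ordered from the lowest ratio at the top and named by contig length. The 2468-base and 1603-base contigs sit at 1 in yellow because they were listed at 0, and the 1699-base contig reaches 1349 FPKM in green.

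The most abundant lowered locus in green, from a 2271-base contig, had 1041 FPKM in yellow against 3506 FPKM in green, 3.37-fold lower. It alone held 39.0% of the summed yellow FPKM and 30.1% of the summed green FPKM of the 107 loci. The 107 loci summed to 2670 FPKM in yellow and 11632 FPKM in green, 4.36-fold lower, and without that locus to 1628 FPKM in yellow and 8126 FPKM in green, 4.99-fold lower. They made up 0.847% of the yellow and 3.35% of the green sum of all 6251 loci. Those sums were 315384 FPKM in yellow and 346764 FPKM in green. The most abundant locus, which was within 3-fold, gave 57389.9 FPKM of the yellow and 95090.5 FPKM of the green sum. A few of the 107 loci carried most of their own summed level. The 5 most abundant of them in green held 55.1% of their yellow and 56.0% of their green sum.

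Rank 3 in green was taken by a 1617-base contig, with 220 FPKM in yellow against 668 FPKM in green, 3.03-fold lower. The fifth was a 2614-base contig, with 131 FPKM in yellow against 472 FPKM in green, 3.61-fold lower. Together with the 2271-base locus these were the only ones of the 107 at or above 100 FPKM in yellow.

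The seventh most abundant in green was a 1067-base contig, with 60.8 FPKM in yellow against 206 FPKM in green, 3.39-fold lower. A 2168-base contig had 55.3 FPKM in yellow against 178 FPKM in green, 3.21-fold lower. A 1555-base contig gave nearly the same values, 55.0 FPKM in yellow against 176 FPKM in green, 3.20-fold lower. The tenth was a 1248-base contig, with 34.4 FPKM in yellow against 159 FPKM in green, 4.61-fold lower. Among the 10 most abundant in green, those on the contigs of 1699, 1218 and 1368 bases were thus also among the 20 lowest ratios, and the other 7 were 3.03-fold to 4.61-fold lower.

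The 5 lowered loci on the longest contigs lay on 4 contigs. On the 6744-base contig the lowered locus had 5.68 FPKM in yellow against 30.6 FPKM in green. Both loci of the 5080-base contig were lowered, with 11.1 FPKM in yellow against 61.4 FPKM in green and with 8.28 FPKM in yellow against 33.2 FPKM in green. The 4598-base contig had 6.87 FPKM in yellow against 26.7 FPKM in green, and the 4351-base contig had 2.50 FPKM in yellow against 11.9 FPKM in green. These loci were 3.89-fold to 5.53-fold lower, within the range of the other lowered loci.

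The limits cut through a continuous range. Just inside the 3-fold limit, the contigs of 2517, 1617, 1542, 3251 and 1146 bases were 3.01-fold to 3.03-fold lower after 1 was added to each FPKM. Just outside it, loci on contigs of 2050, 3563, 4019, 2052 and 2789 bases were 2.98-fold to 2.99-fold lower on that scale. The 1146-base locus had 25.8 FPKM in yellow against 79.7 FPKM in green, and the 2050-base locus 41.3 FPKM in yellow against 125 FPKM in green. As plain ratios of FPKM these were 3.09-fold and 3.04-fold lower, so the 1 added to each value placed the 2050-base locus outside.

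The share of loci that were lowered was read across contig length, which the rule used as a minimum only, and across level, which also enters its ratio. By contig length it was 2.34% of 1623 loci on contigs of 1000 to 1500 bases, 1.61% of 1548 loci at 1501 to 2000 bases, 1.59% of 1892 loci at 2001 to 3000 bases and 1.18% of 1188 loci above 3000 bases. The share of raised loci in the same classes was 3.82%, 3.36%, 2.33% and 2.10%. Both directions were thus more frequent on the shorter of these contigs. The median log2 ratio of the lowered loci was -1.95, -1.91, -1.90 and -1.88 in these classes and differed little. For all loci of these classes the median was -0.13, -0.03, 0.01 and 0.12, so whole classes were shifted. The part of that shift in the shares was not tested.

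By FPKM in the higher sector, lowered loci were 1.15% of 2863 loci at 10 to under 20 FPKM, 1.44% of 2228 loci at 20 to under 50 FPKM and 3.65% of 713 loci at 50 to under 100 FPKM. Above that they were 12 of 391 loci (3.07%) from 100 to under 500 FPKM and 4 of 56 loci (7.14%) from 500 FPKM up. Raised loci were 2.06%, 2.42%, 3.93%, 9.21% and 10.7% in the same classes. These classes use a value that the rule itself used, and the 1 added to each FPKM shrinks ratios at low levels, so nothing is read from the order of the shares. Lowered and raised shares were closest at 50 to under 100 FPKM, and from 100 to under 500 FPKM there were 12 lowered against 36 raised loci.

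**Figure D3:**
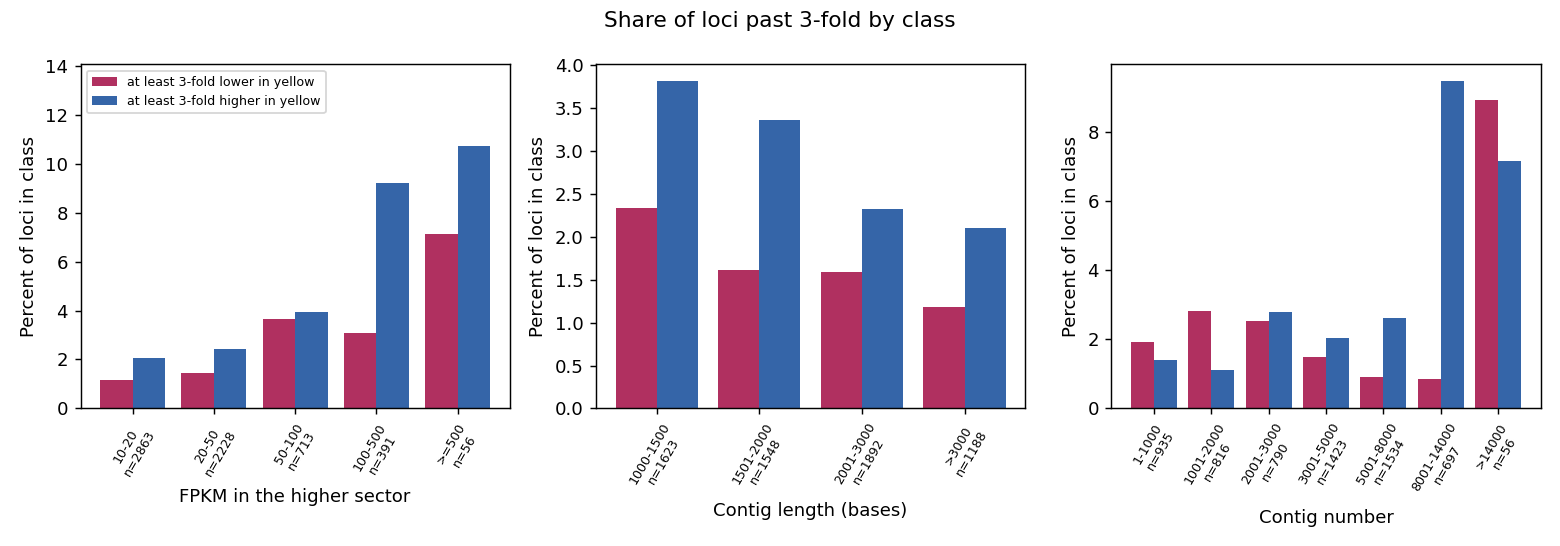
Percent of loci at least 3-fold lower and at least 3-fold higher in the yellow sector, out of all loci of a class, by FPKM in the higher sector (left), contig length in bases (middle) and contig number (right), with the loci of each class under its bar as n. Lowered loci are 1.15% at 10 to under 20 FPKM and 7.14% from 500 FPKM up, and 0.861% on contigs numbered 8001 to 14000, where raised loci are 9.47%.

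The contig names hold further features that the rule did not use: a contig number in the assembly, a count of transcripts assembled at that number and a confidence value. Lowered loci lay on lower contig numbers, with a median of 2603 (quartiles 1344 and 4794), against 6049 for the raised loci and 3755 for the loci within 3-fold. On contigs numbered up to 3000 there were 61 of the 107 lowered loci (57.0%), 44 of the 183 raised loci (24.0%) and 40.9% of the loci within 3-fold. Above contig 8000 the shares were 10.3% of the lowered, 38.3% of the raised and 11.3% of the loci within 3-fold. The lowered loci thus had the lowest median contig number of these groups and the raised loci the highest, and no test of these differences was made.

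On contigs 1001 to 2000, 23 of 816 loci (2.82%) were lowered and 9 loci (1.10%) were raised. They were 1.93% on contigs 1 to 1000 and 2.53% on contigs 2001 to 3000. The share was 1.48% on contigs 3001 to 5000, 0.913% on contigs 5001 to 8000 and 0.861% on contigs 8001 to 14000. In the last of these ranges 66 of 697 loci (9.47%) were raised. Above contig 14000 there were 56 loci, of which 5 were lowered (8.93%) and 4 raised (7.14%), the highest lowered share of these ranges but on few loci. The median log2 ratio of all loci was 0.18 on contigs 8001 to 14000 and -0.33 above contig 14000. In the other ranges it lay from -0.07 to 0.005. The part of these shifts in the shares was not tested.

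The level of the lowered loci differed between ranges of contig number. The median was 19.9 FPKM in yellow and 91.7 FPKM in green on contigs 1 to 1000, and 3.51 FPKM in yellow and 16.9 FPKM in green on contigs 5001 to 8000. It was 4.18 FPKM in yellow and 18.4 FPKM in green on contigs 8001 to 14000, and 6.42 FPKM in yellow and 22.1 FPKM in green above contig 14000, where 6 and 5 loci were lowered. The part of level in the pattern along contig number was not tested. On contigs numbered up to 8000 alone, 96 loci were lowered and 113 raised, a lowered share of 45.9%.

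Transcript count and confidence differed little for most lowered loci. The median transcript count was 21 for the lowered loci, 21 for the raised loci and 24 for the loci within 3-fold, and the median confidence value was 0.602, 0.603 and 0.606. Contigs named with a single transcript were an exception, with 4 of 107 lowered loci (3.74%), 2 of 183 raised loci (1.09%) and 39 of the 5961 loci within 3-fold (0.654%). They were the contigs of 1218, 1603 and 1362 bases, given above among the 20 lowest ratios, and one of 3225 bases with 6.42 FPKM in yellow against 22.1 FPKM in green. With 4 loci these shares rest on very few values. All 4 had contig numbers above 14000, where 5 loci were lowered. The single-transcript share and the lowered share above contig 14000 thus rest largely on the same loci.

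Another locus of the table lay on the same contig for 39 of the 107 lowered loci (36.4%), 53 of the 183 raised loci (29.0%) and 23.3% of the loci within 3-fold. On 6 contigs 2 loci were lowered, which makes 12 of the 107. Besides the contigs of 1449 and 5080 bases these had lengths of 1964, 2498, 3605 and 3854 bases. Loci of 1 contig share their source and are not independent measurements.

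On the 3854-base contig the loci were nearly alike, with 1.83 FPKM in yellow against 14.4 FPKM in green and with 1.86 FPKM in yellow against 13.2 FPKM in green. The 3605-base contig had 18.5 FPKM in yellow against 66.2 FPKM in green for one locus and 33.8 FPKM in yellow against 109 FPKM in green for the other. The loci of the 2498-base contig had 13.3 FPKM in yellow against 61.6 FPKM in green and 6.10 FPKM in yellow against 21.7 FPKM in green. Within these pairs the log2 ratios were 0.13, 0.13 and 0.45 apart, while the green levels differed by 1.09-fold, 1.65-fold and 2.84-fold.

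The 1964-base contig had 2.66 FPKM in yellow against 14.0 FPKM in green and, for its second locus, 3.22 FPKM in yellow against 12.4 FPKM in green. Over the 6 contigs the log2 ratios of the pair were 0.13 to 1.04 apart. The widest gap was on the 1449-base contig.

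The other loci on contigs of lowered loci were not chosen by the rule and give the same measure in loci it did not use. There were 29 such loci with at least 1 FPKM in a sector, on 27 contigs, and 1 more below that level. A locus of this kind that passed all limits would itself count as lowered, so their ratios are cut off by the rule. Their median was 5.72 FPKM in yellow and 14.0 FPKM in green, and 24 of 29 were lower in yellow. The median log2 ratio was -0.97 (quartiles -1.31 and -0.12). It was 0.04 (quartiles -0.30 and 0.43) for 486 other loci under 10 FPKM on contigs of loci within 3-fold. For the 31 other loci on contigs of raised loci it was 1.30 (quartiles 0.64 and 1.46). The 486 leave out every locus that reached 10 FPKM in a sector, whereas only 12 of the 29 were under 10 FPKM. The levels of these sets are thus unlike. All these loci come from the same 2 libraries.

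At least 2-fold lower in yellow were 11 of the 29 loci (37.9%), and 1 was at least 2-fold higher. The background of loci at least 2-fold lower was 6.21% of all 16808 measured loci (11.5% were at least 2-fold higher). It was 4.73% of the 486 loci under 10 FPKM on contigs of loci within 3-fold. The other loci on contigs of lowered loci were thus lower more often than either background, with no test of that difference. Neither background was matched to them in level. In 28 of the 29 comparisons the other locus differed less between the sectors than the lowered locus of its contig. The rule largely fixed this count, since other loci at 10 FPKM or more and past the limit would themselves count as lowered. Only the 12 under 10 FPKM could have a lower ratio than the lowered locus, so nothing is read from the count.

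Those that came nearest to the limits lay on contigs of 2318, 2078 and 3520 bases, and missed the 10 FPKM minimum alone. On the 2318-base contig the other locus had 1.70 FPKM in yellow against 9.70 FPKM in green, 5.72-fold lower, next to a lowered locus with 2.30 FPKM in yellow against 10.8 FPKM in green. The 2078-base contig had 2.28 FPKM in yellow against 9.99 FPKM in green at its other locus, 4.39-fold lower. The 3520-base contig had 2.61 FPKM in yellow against 9.97 FPKM in green, 3.82-fold lower. On these contigs both loci were thus lower in yellow by more than 3-fold.

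On other contigs the loci had ratios of different size or sign. On the 3601-base contig the lowered locus had 4.54 FPKM in yellow against 17.7 FPKM in green, while the other locus had 58.7 FPKM in yellow against 21.6 FPKM in green, 2.72-fold higher. The 1245-base contig had a lowered locus with 27.3 FPKM in yellow against 95.6 FPKM in green, beside one with 33.2 FPKM in yellow against 18.1 FPKM in green. On the 1248-base contig, which holds the tenth most abundant lowered locus, the other locus had 209 FPKM in yellow against 222 FPKM in green and hardly differed.

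The loci listed at 0 in yellow also had neighbours that were measured there. Beside XLOC_013867 the other locus had 1.90 FPKM in yellow against 3.67 FPKM in green, 1.93-fold lower. Beside the zero on the 1603-base contig the other locus had 15.6 FPKM in yellow against 9.12 FPKM in green, 1.71-fold higher. The zeros therefore apply to a locus and not to its whole contig. The labels do not state how fragments were divided between loci of 1 contig.

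**Figure D4:**
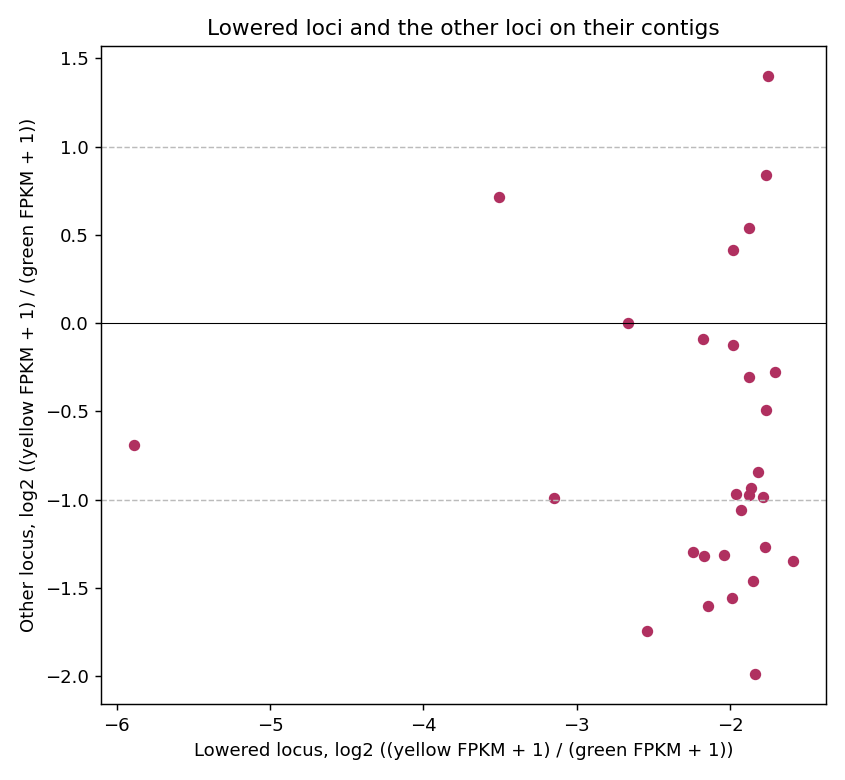
Log2 of (yellow FPKM + 1) / (green FPKM + 1) for the 29 other loci (vertical) against that of the lowered locus on the same contig (horizontal), with dashed lines at 2-fold. Of the other loci, 24 lie below 0 and 11 at or below the lower dashed line, and the point at the upper right is the 3601-base contig.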

How the data were processed

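RNA was sequenced from 1 yellow and 1 green leaf sector library. The authors deposited FPKM per locus, 1 column per sector, per the file headers. CASAVA 1.8.2, TopHat and Cufflinks are named in the submitters' processing notes. No source used here gives their options, the assembler or the FPKM denominator, and depth is unknown. All sample columns were used (0 left out). Contig number, transcript count, confidence and length were read from the contig names.

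The log2 ratio was log2((yellow FPKM + 1) / (green FPKM + 1)). With 1 library per sector no test was made. Python 3.11.15, pandas 2.3.3, numpy 2.4.6, scipy 1.17.1 and matplotlib 3.10.9 were used. The lowered loci and the limits were chosen with earlier results of these data known. Described were the 20 lowest ratios, the 10 highest green values, the 5 longest contigs, the 5 loci on either side of the 3-fold limit and contigs with 2 lowered loci. Other loci were described after their values were seen. Gene lists were left without values, since 0 identifiers are paired with names. Alternatives were other pseudocounts, FPKM and length minimums, fold limits and scalings, 1 locus per contig, and contigs numbered up to 8000.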

Additional observations from a re-analysis of the deposited data

How the results depend on the processing

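Against 107 lowered loci, a pseudocount of 10 left 29, contigs of at least 2000 bases 44, a 4-fold rule 43 and a 2-fold rule 344, and the 2-fold rule gave a median log2 ratio of -1.34. Those counts follow from stricter or looser limits. The lowered share of the loci considered, 1.71%, was 2.10% with a pseudocount of 0.1, 0.464% with one of 10, 1.15% with no FPKM minimum, 2.18% with a minimum of 20 FPKM, 5.50% at 2-fold, 0.688% at 4-fold and 2.70% with yellow divided by the ratio of totals without the most abundant locus. That last scaling reversed the split of lowered against raised loci, to 59.5% lowered against 36.9%. The lowered share of loci past the limit was 30.9% with a pseudocount of 10, 30.1% with no minimum, 30.3% at 4-fold and 45.9% on contigs numbered up to 8000. The cause was not tested. The other 47 of 64 recomputed values stayed within 1.5 times the reported one (counts and, as folds, median log2 ratios) or within its exact binomial 95% interval (shares). Among them were 160 lowered loci with yellow divided by that ratio of totals, and a median log2 ratio of -0.60 with no minimum, against -0.97, for the other loci on contigs of lowered loci. The binomial interval was a yardstick only, since it treats loci as independent and holds no spread between replicates. Of the 20 loci with the lowest ratio, 11 stayed past 3-fold with a pseudocount of 10. All 20 stayed under a pseudocount of 0.1 and under each of the 3 other scalings. Those settings could only lower or keep the ratio of a lowered locus, so nothing is read from that count. No paired analysis was possible because each sector has 1 library, and likewise no replicate could be left out. What depth limits cannot be stated, since no depth is known.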
